A study of Mus musculus with 8 samples.

Results

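K14Snail and wild type Mts24 positive cells, 1 array of each genotype, were compared across genes. They are 2 of the 8 arrays of the series, which hold keratinocytes sorted by surface marker from mouse back skin. Members were chosen by sample title: the deposited value of the K14Snail Mts24 positive array minus that of the wild type Mts24 positive array. The difference was taken for each of 19938 genes with a probe set of 1 symbol, using the probe set of highest mean where a gene had several. Of these, 10720 genes reached a log2 signal of 7.7, the median over all named genes and arrays, on at least 2 of the 8 arrays, and the counts below are over them.

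Both arrays hold cells of CD1 mice aged 8 weeks, males and females mixed, each from a pool of 9 mice. K14Snail mice carry Snail under the keratin 14 promoter, which is active in basal keratinocytes and the outer root sheath of the hair follicle. The controls are labelled wild type. Keratinocytes released with trypsin were bound to the Mts24 antibody, tagged with a fluorescent secondary antibody and pulled out with a magnet. The other 6 arrays, used here only for context, are the Mts24 negative cells of both genotypes (pools of 9 mice) and the CD34 positive and CD34 negative cells of both genotypes (pools of 11 mice). The labels give neither the transgene's exact make-up nor the number of lines, and do not say whether the positive and negative cells of a marker came from the same mice.

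Snail, encoded by Snai1, is a zinc finger transcription factor that binds E-box sequences and is known for repressing E-cadherin and other epithelial genes during epithelial to mesenchymal transition, in which epithelial cells lose their junctions and become motile. Mts24 recognises the product of Plet1, which marks keratinocytes of the upper hair follicle between the bulge and the sebaceous gland duct. Cells of that region help maintain the follicle mouth and sebaceous gland, and after wounding can move into the epidermis.

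The sort markers followed the labels. Plet1 read 12.88 in wild type and 12.64 in K14Snail Mts24 positive cells, against 9.91 and 9.16 in the Mts24 negative cells, a log2 enrichment of 2.97 in wild type and 3.48 in K14Snail. Cd34, the bulge antigen, was also higher in Mts24 positive than in Mts24 negative cells, by 2.09 in wild type and 1.06 in K14Snail, and read 12.12 and 11.56 in the positive cells. All 7 keratinocyte markers passed the filter, and their mean level was 12.97 in wild type and 12.95 in K14Snail. Keratin 14 itself (Krt14) read 13.64 and 13.72. Array medians lay between 7.32 and 7.42 over the 8 arrays. With 1 array a side there is no replicate check on any difference within Mts24 positive cells, and no p-value is given for one. Values below are log2 signal, and differences are K14Snail minus wild type. In pooled cells, more cells of a type and more RNA per cell cannot be told apart.

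Most genes differed little between the genotypes. Over the 10720 genes the median difference was 0.07 with an SD of 0.34, and the range ran from -2.68 to 3.22. Slightly positive values prevailed: 6581 genes (61.4%) lay above 0 and 4138 below, and counts above or below 0 in the gene lists are to be read against that share. A 2-fold difference marked 143 genes as higher in K14Snail (1.33% of those measured) and 62 as lower (0.578%). With the median difference subtracted these counts were 123 and 85. At 4-fold, 15 genes were higher and 4 were lower. The wild type array lay under 7.7 for many of the higher genes: in 54 of the 143 the dimmer side was under that level, where the size of a difference is uncertain, and the same held for 15 of the 62 lower genes. Of the 143, 21 reached 7.7 on K14Snail arrays only and so passed the filter only where they were high.

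**Figure D1:**
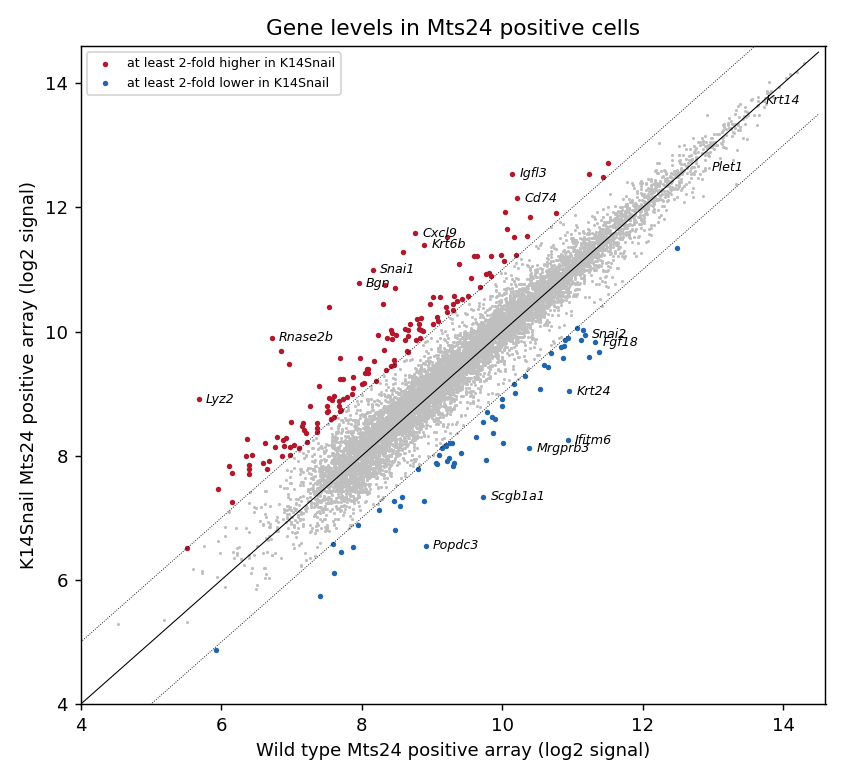
Each point is 1 of the 10720 genes, with its log2 signal on the wild type Mts24 positive array (horizontal) and the K14Snail Mts24 positive array (vertical); the solid line marks equal levels, the dotted lines 2-fold, and colours the 143 higher and 62 lower genes. Lyz2, Rnase2b and Snai1 lie farthest above the line, Ifitm6, Scgb1a1 and Popdc3 farthest below, and Krt14 and Plet1 lie close to it.

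Snai1 was the transcript that the genotype label predicts to differ. It read 8.16 in wild type and 11.00 in K14Snail Mts24 positive cells, a difference of 2.84 or 7.16-fold. All 4 wild type arrays lay between 7.86 and 8.16 and all 4 K14Snail arrays between 10.84 and 11.04, with differences of 3.05 and 2.89 in CD34 negative and CD34 positive cells and 2.98 in the Mts24 negative cells. Snai2, which encodes the related factor Slug, ran the other way: it read 11.18 in wild type and 9.95 in K14Snail Mts24 positive cells, a difference of -1.23. The Snai2 differences in CD34 negative, CD34 positive and Mts24 negative cells were -2.53, -0.68 and -2.86, so the K14Snail array was the lower one in each fraction.

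Keratins and secreted defence proteins of wounded or inflamed epidermis stood out among the higher genes. Krt6b, a keratin of the follicle and of wound-edge epidermis, read 8.89 in wild type and 11.40 in K14Snail, a difference of 2.51. Krt16, its usual type I partner in activated keratinocytes, read 8.33 and 10.75, a difference of 2.42. Stfa3, a cysteine protease inhibitor of the stefin A family, read 7.54 and 10.39. Lcn2, a siderophore-binding protein of innate defence, read 6.85 and 9.68. The K14Snail array was above wild type by more than 4-fold for each of these. Of the 25 genes listed as wound-associated epidermis, 15 passed the filter, 8 of them were at least 2-fold higher and 0 lower, and their median difference was 1.13 against 0.07 for all genes. Over the 23 members on the array, filtered or not, the median was 0.61. The other 4 of the 8 were the cornified envelope genes Sprr1b (1.59) and Sprr2d (1.55), the gap junction gene Gjb2 (1.47) and the protease inhibitor Slpi (1.13). Krt17, a constitutive keratin of the follicle, differed by 0.18, and Krt6a by 0.83. Close relatives within the Krt6, Stfa and Sprr families can share probe signal, so single values there are uncertain.

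The Krt6b difference was smaller elsewhere, at 0.86 and 0.40 in the CD34 negative and CD34 positive cells and 0.37 in the Mts24 negative cells. Krt16 differed by 1.32, 1.50 and 0.60 in the same order. The median difference of the wound-associated list was 0.69, 0.68 and 0.13 there.

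Other genes among the 20 highest have varied roles. Bgn, the matrix proteoglycan biglycan, read 7.96 in wild type and 10.78 in K14Snail, a difference of 2.82, and was at least 2-fold higher in all 4 fractions. Igfl3, an insulin growth factor-like secreted protein, read 10.14 and 12.54, a difference of 2.40 that was smaller than the 4.02 and 4.19 of CD34 negative and CD34 positive cells. Klk6, a serine protease of the epidermal kallikrein cluster, read 9.22 and 11.53. These genes were higher in every K14Snail fraction.

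Gsdmc, a gasdermin, read 6.96 and 9.48, a difference of 2.52 against 0.69, 0.64 and 0.27 in CD34 negative, CD34 positive and Mts24 negative cells. Foxi3, a forkhead factor of hair placodes and follicles, read 8.30 and 10.44. Chil1, a chitinase-like lectin of inflamed tissue, read 8.59 and 11.28. Edn1, the vasoactive and melanocyte-acting peptide endothelin 1, read 7.69 and 9.58, a difference of 1.89 against 1.27, 0.14 and 0.03 in those fractions. For Gsdmc and Edn1 the difference in Mts24 positive cells was the largest of the 4, as for the other genes of this paragraph. All were picked as the highest in Mts24 positive cells, which favours that order. Rnase2b, a ribonuclease of the eosinophil-associated family, read 6.72 and 9.90, a difference of 3.18, and went the other way in CD34 positive (-2.18) and Mts24 negative (-1.39) cells. Scarna13, a small RNA of Cajal bodies, Sp100, a nuclear body protein, and Serpinb1a, an inhibitor of neutrophil proteases, differed by 1.90, 1.90 and 1.73.

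The 20 lowest genes had varied roles too, and only Ifitm6 and Fgf18 were on a gene list. Ifitm6, a member of the interferon-induced transmembrane family, read 10.93 in wild type and 8.25 in K14Snail, a difference of -2.68. Scgb1a1, a secretoglobin, read 9.73 and 7.34, and Popdc3, a membrane protein of the Popeye family, 8.91 and 6.55. Mrgprb3, a Mas-related G protein-coupled receptor, read 10.38 and 8.12, a difference of -2.25 against -3.05 in CD34 positive cells and -0.34 and -0.25 in CD34 negative and Mts24 negative cells. For Ifitm6 and Mrgprb3 both positive fractions were several-fold lower in K14Snail and both negative fractions differed by less than 2-fold.

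Krt24, a type I keratin, read 10.95 and 9.04, a difference of -1.91. Fgf18, a growth factor made by bulge cells that holds follicles in their resting phase, read 11.32 and 9.83, a difference of -1.49, close to the -1.40 of CD34 positive cells. F3, the tissue factor that starts coagulation, read 10.54 and 9.08, a difference of -1.47, while it was higher by 0.22 and 0.20 in the CD34 negative and Mts24 negative cells. Both of these genes were thus lower in both positive fractions. Serpina12, an adipokine serpin, Gabrp, a subunit of the GABA-A receptor, and Elmod1 differed by -1.80, -1.84 and -1.70.

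Receptors and hormone subunits made up several of the rest, which were Slc38a3 (-1.67), a glutamine transporter, Npy1r (-1.66), a neuropeptide Y receptor, Gpha2 (-1.64), a glycoprotein hormone subunit, Dab1 (-1.59), a reelin pathway adaptor, Avpr1a (-1.51), a vasopressin receptor, and Efcab1 (-1.50). Adh1, which oxidises alcohols and retinol, Ttc9, Tlcd4 and Slc6a2, the noradrenaline transporter, closed the 20 at -1.46, -1.44, -1.37 and -1.36. Gpha2 and Avpr1a differed by -1.72 and -1.70 in CD34 negative cells but by only -0.42 and -0.43 in CD34 positive cells, unlike most of the lowest genes.

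**Figure D2:**
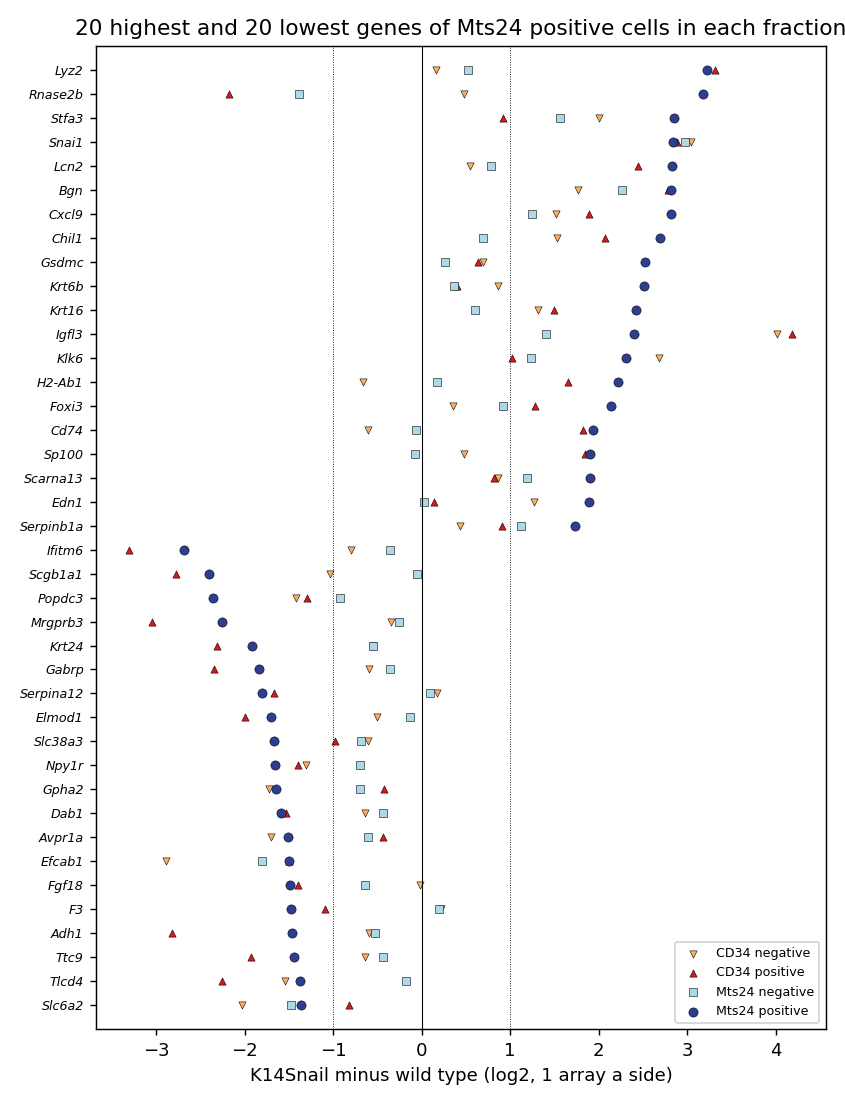
Rows are the 20 highest and 20 lowest genes of Mts24 positive cells, and symbols give the K14Snail minus wild type difference (log2, 1 array a side) in each of the 4 sorted fractions, with dotted lines at 2-fold. The symbols of Snai1 lie together near 3, those of Krt6b and Gsdmc show Mts24 positive cells apart from the rest, and the CD34 positive symbols of Ifitm6 and Mrgprb3 lie beyond the Mts24 positive ones.

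The promoters of some of these genes are shown because Snail is known to bind the E-box CAGGTG and interferon regulatory factors a core of AANNGAAA. The windows are the 250 bases before the RefSeq transcription start on GRCm38.p6, read along the gene, and matches on either strand were counted (CACCTG and TTTCNNTT on the other strand). The build behind the annotation of the arrays themselves was not given. Of 32851 windows over 27025 genes, 17.2% held CAGGTG and 21.3% held AANNGAAA. Among the 20 lowest genes 13 had a window, and 5 of their 15 windows (33.3%), of Gpha2, Dab1, Avpr1a and Tlcd4, held CAGGTG. Among the 20 highest 13 had a window, and 1 of 15 (6.67%), that of Snai1, held it. AANNGAAA was found in 5 of 15 windows in either set. A match is only a description of these letters, and the sets are small. In Gpha2 (chr19:6226151-6226400, plus strand) and Avpr1a (chr10:122448249-122448498, plus strand), both lower in K14Snail, capitals mark CAGGTG or its reverse complement, which begins 133 and 172 bases before the start; both windows also hold AANNGAAA, left in lower case (2 matches in Gpha2 and 1 in Avpr1a). In Stfa3 (chr16:36455393-36455642, minus strand) and Sp100 (chr1:85649738-85649987, plus strand), both higher, capitals mark AANNGAAA or its reverse complement. It begins 178 bases before the start in Stfa3, and at 47 and 40 bases in Sp100, where the matches overlap by 1 base.
Gpha2: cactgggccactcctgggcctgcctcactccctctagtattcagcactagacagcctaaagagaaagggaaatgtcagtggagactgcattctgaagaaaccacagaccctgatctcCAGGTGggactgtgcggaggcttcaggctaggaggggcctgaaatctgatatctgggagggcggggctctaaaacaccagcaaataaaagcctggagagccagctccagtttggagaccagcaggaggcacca
Avpr1a: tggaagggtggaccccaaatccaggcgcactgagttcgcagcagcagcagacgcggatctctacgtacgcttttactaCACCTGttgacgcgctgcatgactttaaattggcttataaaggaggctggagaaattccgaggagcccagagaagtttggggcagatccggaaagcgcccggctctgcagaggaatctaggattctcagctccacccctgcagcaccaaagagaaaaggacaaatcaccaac
Stfa3: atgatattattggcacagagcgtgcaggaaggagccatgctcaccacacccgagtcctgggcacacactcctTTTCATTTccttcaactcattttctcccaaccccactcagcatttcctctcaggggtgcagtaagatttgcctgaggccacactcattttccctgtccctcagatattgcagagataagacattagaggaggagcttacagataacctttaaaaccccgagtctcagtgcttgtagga
Sp100: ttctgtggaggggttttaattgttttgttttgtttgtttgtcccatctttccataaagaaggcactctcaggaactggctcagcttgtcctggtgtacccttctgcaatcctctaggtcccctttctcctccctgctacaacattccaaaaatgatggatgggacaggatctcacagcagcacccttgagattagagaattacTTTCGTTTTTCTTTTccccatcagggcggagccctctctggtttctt

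The same genes were then read in the other fractions, whose arrays are separate. Of the 143 higher genes, 123 (86.0%) were also higher in CD34 positive K14Snail cells, 110 (76.9%) in CD34 negative and 94 (65.7%) in the Mts24 negative cells. Over all genes above 0 in Mts24 positive cells these shares were 66.4%, 54.9% and 63.0%. The median differences of the 143 genes were 0.99, 0.41 and 0.23 in the same order. At least 2-fold higher as well were 70 of them in CD34 positive cells, 25 in the CD34 negative and 17 in the Mts24 negative cells, and 57 passed 2-fold in Mts24 positive cells alone. Of the 143, 15 reached the level of the filter only on the K14Snail arrays of the positive fractions. The filter thus fixed their direction in CD34 positive cells. They are counted in the 123 and in the median of 0.99, and any past 2-fold there in the 70. For these 15 the CD34 positive cells are no separate check. Of the 62 lower genes, 59 (95.2%) were lower in CD34 positive cells too, 40 of them by at least 2-fold, with a median of -1.42 there against -0.42 and -0.34 in the CD34 negative and Mts24 negative cells. Over all genes below 0 in Mts24 positive cells, 70.0% were below 0 in CD34 positive cells as well. In all 4 fractions 9 genes were at least 2-fold higher (Aff2, Atp12a, Bgn, Cxcl9, Ehf, Igfl3, Klk6, Snai1 and Sprr1b) and 4 at least 2-fold lower (Adh6b, Efcab1, Enpp5 and Serpina3b). CD34 positive cells had more such genes of their own, 300 higher and 230 lower, than CD34 negative (49 and 43) or Mts24 negative cells (50 and 29).

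Genes of the upper follicle, the region that Mts24 marks, were near balance. Of 17 listed genes 16 passed the filter, 8 were above and 8 below 0, none reached 2-fold and the median was 0.00. Lrig1, a growth-restraining receptor of junctional zone stem cells, read 11.90 in wild type and 12.05 in K14Snail, and Gata6, a factor of the sebaceous duct, 11.91 and 11.77. Lgr6, a stem cell receptor for R-spondins, read 10.98 and 10.27, a difference of -0.72. Bulge genes had a median of -0.12 over 22 genes. Fgf18 was the 1 member at least 2-fold lower and Tnc, a matrix glycoprotein of stem cell niches and healing wounds, the 1 at least 2-fold higher (8.09 and 9.34). The bulge factors Sox9 and Lhx2 differed by -0.03 and -0.61.

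Basal epidermal genes leaned to lower values in K14Snail, by small amounts. Of 17 measured, 14 were below 0 and 3 above, with a median of -0.26 and none at 2-fold; the same list had medians of 0.11, -0.04 and 0.23 in CD34 negative, CD34 positive and Mts24 negative cells. Among them were the integrin subunit genes Itga3 (-0.61) and Itga2 (-0.38), the hemidesmosomal collagen Col17a1 (-0.33) and Igfbp3 (-0.84), which binds insulin-like growth factors. Suprabasal differentiation genes had a median of -0.24 over 26 genes, 16 of them below 0. Casp14, a protease of cornifying cells, read 10.35 and 11.54, a difference of 1.19. Alox12b, a lipoxygenase of the lipid barrier, read 10.83 and 9.76, and Lor, the envelope protein loricrin, 13.32 and 12.38. The list therefore held genes that differed in opposite directions. In CD34 positive cells its median was -1.25, and Casp14 was lower there (-1.60).

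Sebaceous genes had a median of 0.05 over 16 genes in Mts24 positive cells, where the other fractions had -0.66 (CD34 negative), -1.10 (CD34 positive) and -0.18 (Mts24 negative). Scd3, a stearoyl-CoA desaturase of the gland, differed by -0.96 here against -2.68, -4.13 and -1.29, and Fa2h, a fatty acid hydroxylase, by -0.64 against -3.34, -3.68 and -1.52. On the wild type arrays the mean level of the list was already lowest in Mts24 positive cells, 9.07 against 9.70, 9.87 and 9.39. On the K14Snail arrays it was 9.03 against 8.54, 8.52 and 8.97. Plin2, a lipid droplet coat protein, was higher by 0.91. Genes of the hair shaft and inner root sheath had a median of 0.00 over 11, with Krt25, an inner root sheath keratin, higher by 1.28 (6.60 and 7.88). In the epidermal kallikrein cluster Klk6 (2.31) and Klk13 (1.04) were at least 2-fold higher and the other 8 were not, with a median of 0.31 over 10.

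**Figure D3:**
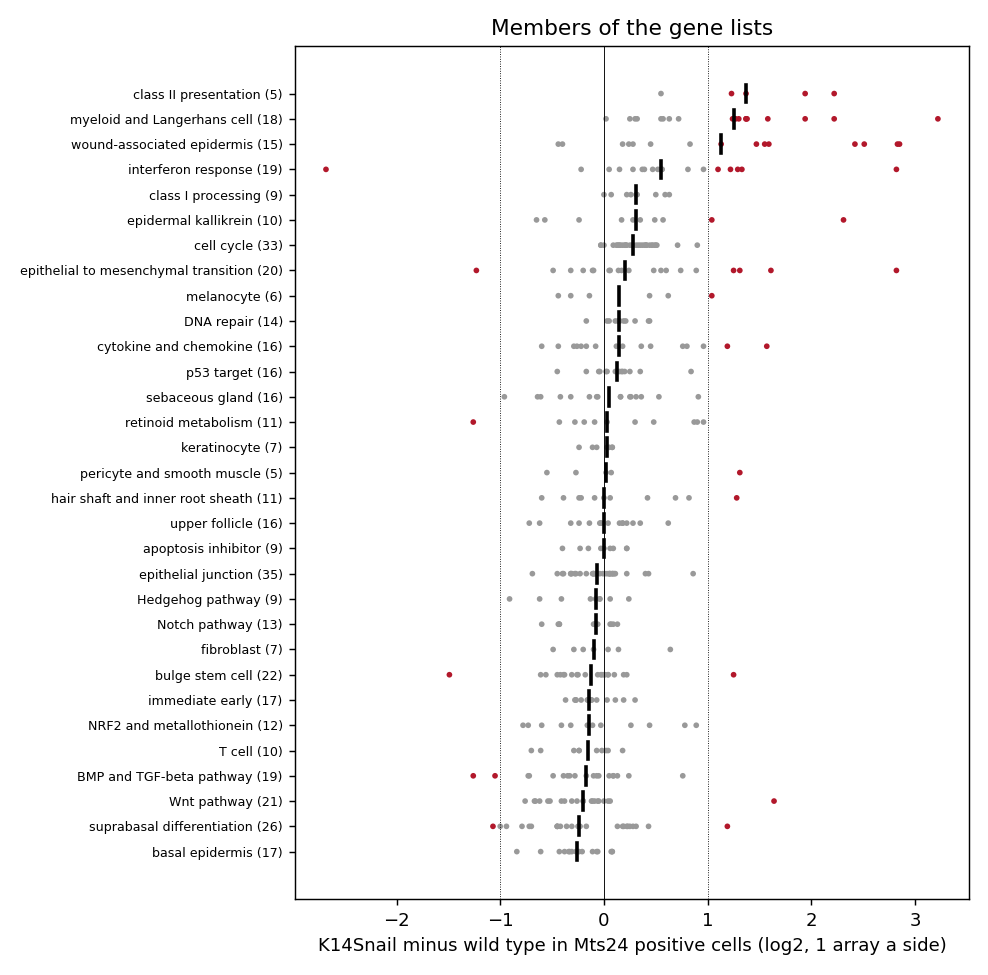
Each point is 1 gene of a list, placed at its K14Snail minus wild type difference in Mts24 positive cells (log2, 1 array a side); black bars are medians, numbers in brackets the genes that passed the filter, dotted lines 2-fold, and red the genes past it. Class II presentation, myeloid and Langerhans, and wound-associated genes have the highest medians (1.37, 1.25 and 1.13) among the lists drawn, which are those with at least 5 measured genes, and basal epidermis the lowest (-0.26). The class II and myeloid lists share Cd74, H2-Aa, H2-Ab1 and H2-Eb1.

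Cdh1, which encodes E-cadherin and is the best known target of Snail, read 12.58 in wild type and 12.61 in K14Snail, a difference of 0.03. The 35 measured genes of epithelial junctions had a median of -0.07, 15 above and 20 below 0, and none reached 2-fold. The widest values were those of Dsc2, a desmosomal cadherin (0.86), Pard6b, a polarity protein (-0.69), and the epithelial factors Ovol2 (-0.45) and Ovol1 (0.43). Of 29 genes linked to epithelial to mesenchymal transition 20 passed the filter, with a median of 0.20 over those and 0.06 over all members on the array. Bgn, Vim, Acta2 and Tnc were at least 2-fold higher and Snai2 at least 2-fold lower. Vim, the intermediate filament vimentin, read 9.60 and 11.22, a difference of 1.61 beside 1.46 in CD34 positive and -0.28 and -0.24 in CD34 negative and Mts24 negative cells. Acta2, smooth muscle actin, read 8.07 and 9.38, while the 5 measured pericyte and smooth muscle genes that include it had a median of 0.02. The transition factors Zeb1, Zeb2, Twist1 and Twist2 and N-cadherin (Cdh2) did not pass the filter: each was under 7.7 on both Mts24 positive arrays. Vim is also abundant in immune cells and fibroblasts. The 7 measured fibroblast genes had a median of -0.10, with a mean level over the whole list of 7.29 in wild type and 7.28 in K14Snail, and none of the 12 endothelial genes passed the filter.

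Genes of myeloid and Langerhans cells, the antigen-presenting cells of the epidermis, were higher in K14Snail Mts24 positive cells. Lyz2, the lysozyme of macrophages and granulocytes, read 5.68 in wild type and 8.91 in K14Snail, the highest difference of all at 3.22, close to the 3.32 of CD34 positive cells. Cd207, the langerin of Langerhans cells, read 6.40 and 7.78, a difference of 1.37. Csf1r, the receptor that macrophages and Langerhans cells need for survival, read 6.90 and 8.16. Of 29 listed genes 18 passed the filter, all 18 were above 0 and 10 were at least 2-fold higher. Their median was 1.25, or 0.55 over all 29. The remaining genes past 2-fold were H2-Ab1, Cd74, Cd53, Ctss, H2-Aa, Laptm5 and Tyrobp. The mean level of the list was 6.89 in wild type and 7.68 in K14Snail, and 4 and then 13 of 29 genes reached 7.7. The general leukocyte marker Ptprc stayed under 7.7 in both (6.22 and 6.52), as did Itgam, Adgre1, C1qa and Aif1.

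The class II genes, which present antigen on such cells, were among the higher ones. Cd74, H2-Aa, H2-Ab1 and H2-Eb1 are also on the myeloid list, so the lists do not give separate results. Cd74, the invariant chain, read 10.21 and 12.15, H2-Ab1 8.48 and 10.70, H2-Aa 9.84 and 11.22 and H2-DMa 8.82 and 10.05, so 4 of the 5 measured class II genes were at least 2-fold higher, and the remaining one, H2-Eb1, differed by 0.55. The wild type Mts24 positive cells were the low ones: the Mts24 negative arrays read 12.37 and 12.31 for Cd74. In Mts24 negative cells the myeloid list had nearly equal means in the genotypes, 8.20 and 8.14, and in CD34 negative cells 8.05 and 7.82. In CD34 positive cells it read 6.93 and 7.75, much as in Mts24 positive cells. Purity of the sort was not measured. The level of Plet1, 12.88 and 12.64, cannot show it, because a small admixture of other cells would barely move that level. The part of immune cells in the differences of other genes, Vim and Lcn2 among them, was not tested.

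Other cell types were then read by their markers. Of 10 measured T cell genes, 7 were below 0 and none reached 2-fold, with a median of -0.15, and Cd3e, a chain of the T cell receptor complex, read 8.30 and 7.69. Only 1 neutrophil gene passed the filter, Cxcr2 (6.16 and 7.26, both under 7.7), and 1 mast cell gene, Kit (7.56 and 8.60), which melanocytes also express. Both were at least 2-fold higher, as 10 of the 18 measured myeloid genes were. Over all 10 neutrophil and 11 mast cell genes on the array the medians were -0.19 and -0.03. The 6 measured melanocyte genes had a median of 0.15. Of the sex-linked genes, the Y-linked Uty, Eif2s3y and Kdm5d differed by 0.36, 0.30 and 0.26, and Xist, which is expressed in females, by 0.07. The same Y-linked genes differed by 1.08, 0.94 and 0.87 in CD34 negative cells. They differed by 0.66, 0.46 and 0.50 in CD34 positive cells and by 0.45, 0.50 and -0.21 in the Mts24 negative cells.

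**Figure D4:**
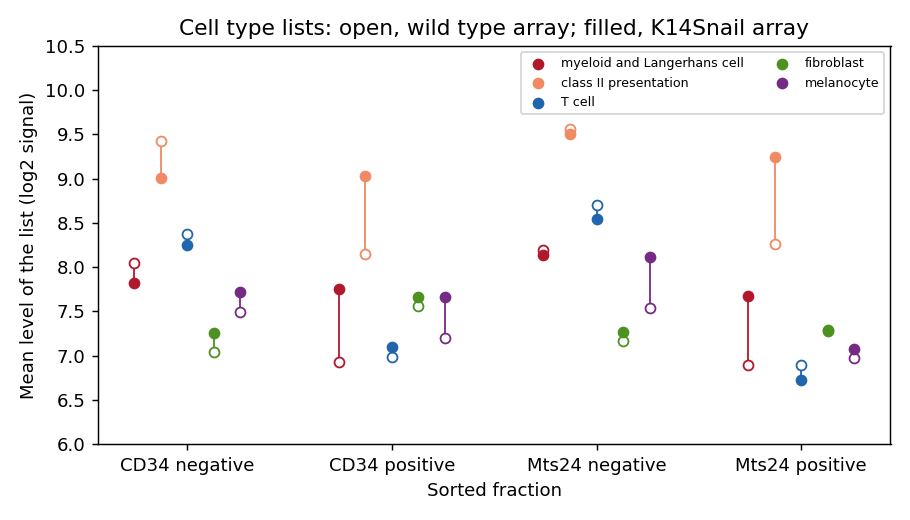
Mean log2 signal of 5 gene lists (all members on the array) in each sorted fraction, with open circles for the wild type and filled circles for the K14Snail array; levels are to be compared within a list only. Myeloid and class II genes, whose lists overlap, stand higher in K14Snail in both positive fractions (6.89 and 7.68 for the myeloid list in Mts24 positive cells), and T cell genes do not in Mts24 positive cells.

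Interferon response genes were also mostly higher. Of 35 listed genes 19 passed the filter, 17 of them above 0, 5 at least 2-fold higher and 1, Ifitm6, at least 2-fold lower, with a median of 0.55, or 0.44 over the members on the array. Cxcl9, a chemokine that draws activated T cells, read 8.76 in wild type and 11.58 in K14Snail, a difference of 2.82 beside 1.52, 1.89 and 1.25 in the other fractions, in that order of CD34 negative, CD34 positive and Mts24 negative. Its relative Cxcl10 read 8.77 and 9.87. Oasl2, Rtp4 and Ifi27l2a differed by 1.33, 1.29 and 1.22, and Rtp4 reached 7.7 on K14Snail arrays only. The list's median was 0.59 and 0.82 in the CD34 negative and CD34 positive cells and 0.18 in the Mts24 negative cells. Class I processing genes were slightly higher, 8 of 9 above 0 with a median of 0.31, led by the immunoproteasome subunits Psmb8 (0.63), Psmb10 (0.59) and Psmb9 (0.50). Among cytokines and chemokines, Ccl2, which recruits monocytes, read 9.64 and 11.21, a difference of 1.57, and Ccl20, which recruits Langerhans cell precursors and some lymphocytes, read 7.74 and 8.92. The other 14 measured members stayed within 2-fold, and the list's median was 0.15.

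Cell cycle genes leaned upward by small steps, 31 of 33 above 0 with a median of 0.28 and none at 2-fold. Mki67, the proliferation antigen, read 10.22 and 10.36, and Cdk1, the mitotic kinase, 10.06 and 10.54. Bub1 and Kif11, of the mitotic spindle, had the widest differences (0.90 and 0.71). The same list had a median of 1.49 in CD34 positive cells, where Mki67 differed by 2.44, and 0.01 and 0.36 in CD34 negative and Mts24 negative cells. DNA repair genes had a median of 0.15 over 14, p53 targets 0.13 over 16 and apoptosis inhibitors 0.00 over 9, and no member of these reached 2-fold. Gadd45a, a p53-induced growth arrest gene, had the widest difference of these lists at 0.84. Immediate early genes, which respond to stress within minutes and so to cell isolation too, had a median of -0.14 over 17, with Fos at 12.81 and 12.53.

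Signalling pathways showed few differences of 2-fold. In the Wnt pathway 17 of 21 genes were below 0, with a median of -0.20, among them the ligands Wnt7b (-0.76) and Wnt10b (-0.67) and the receptor Fzd10 (-0.66). Sfrp2, a secreted Wnt modulator, read 6.35 and 7.99, a difference of 1.64, and was the 1 member past 2-fold. In the Hedgehog pathway 7 of 9 were below 0, with a median of -0.08. The pathway's own response genes Hhip and Gli1 read 7.13 and 6.22, and 7.91 and 7.29. In the BMP and TGF-beta pathway 13 of 19 genes were below 0, with a median of -0.17. Its 2 members past 2-fold were both lower, Grem1, a secreted BMP antagonist (11.12 and 9.86), and the ligand Bmp4 (10.33 and 9.28). Notch genes had a median of -0.08 over 13, retinoid genes 0.03 over 11 and NRF2 targets and metallothioneins -0.14 over 12. Adh6b, a dehydrogenase on the retinoid list, differed by -1.26 on the probe set used and by 0.11 on its other one, so its value depends on the probe set.

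Whether Mts24 positive cells departed from the other fractions was tested with limma, taking the genotype difference there minus the mean of the differences in the other 3. No gene of 10720 passed a limma adjusted p of 0.05 (smallest adjusted p 0.832). An unadjusted p under 0.05 was reached by 588, 427 of them higher and 161 lower. A share of about 0.05 of the genes would reach it if none departed, and 588 is near that share. The spread in that fit came from how far the other 3 fractions disagreed, on 2 residual degrees of freedom. Without the CD34 positive pair, so against the CD34 negative and Mts24 negative cells alone and on 1 residual degree of freedom, 142 genes were called, 86 higher (0.802% of genes) and 56 lower (0.522%). Without the CD34 negative pair or without the Mts24 negative pair, 0 were called, with 269 and 398 genes at an unadjusted p under 0.05. The 142 calls thus rest on the negative fractions alone, and their errors are spreads between fractions, not between mice.

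**Figure D5:**
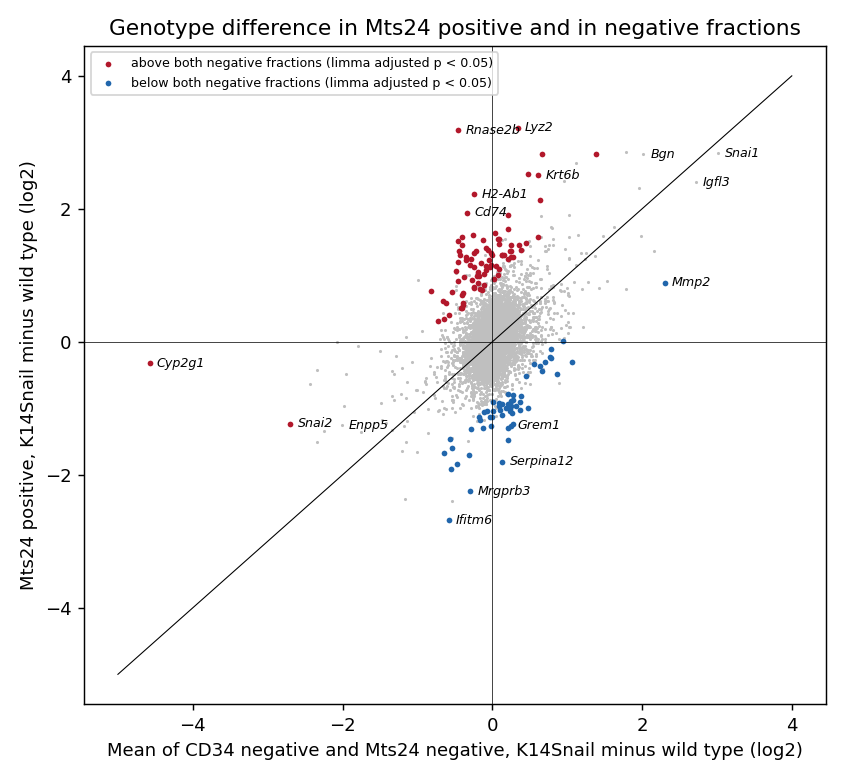
Each point is 1 of the 10720 genes, with the mean genotype difference of the CD34 negative and Mts24 negative cells (horizontal) against that of Mts24 positive cells (vertical), both log2; the diagonal marks equal differences and colours the 86 genes above and 56 below it by limma (adjusted p under 0.05). Snai1 and Igfl3 lie near the diagonal, Lyz2, Rnase2b and Cd74 above it, and Ifitm6, Mrgprb3 and Serpina12 below.

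Among the 86 genes called above the negative fractions, 59 were at least 2-fold higher in Mts24 positive cells themselves, and among the 56 called below them 29 were at least 2-fold lower. Of the 86, 11 reached 7.7 on K14Snail arrays only, Lyz2 and Lcn2 among them, so their place among the genes tested came from the arrays where they were high and their calls carry no weight. Vim departed by 1.87 ± 0.16 (SE, limma adjusted p = 0.00918). Krt6b departed by 1.89 ± 0.22 (limma adjusted p = 0.0193) and Gsdmc by 2.04 ± 0.21 (limma adjusted p = 0.0153). On the lower side were Mrgprb3 (-1.96 ± 0.16) and Serpina12 (-1.94 ± 0.16), both with a limma adjusted p of 0.00918, and Ifitm6 (-2.10 ± 0.21, limma adjusted p = 0.0146). Several of these genes differed alike in CD34 positive cells, Vim by 1.46, Serpina12 by -1.67, Mrgprb3 by -3.05 and Ifitm6 by -3.30, and Lyz2 and Lcn2 by 3.32 and 2.45. Krt6b and Gsdmc differed there by 0.40 and 0.64. Against all 3 other fractions the departures were 1.30 ± 0.78 for Vim, 1.96 ± 0.24 for Krt6b and 1.99 ± 0.22 for Gsdmc, each with a limma adjusted p of 0.832. By list, 11 of 18 myeloid genes and 4 of 5 class II genes were called higher and none lower. The class II genes called, apart from H2-DMa, are among those 11. Of 15 wound-associated genes 3 were called higher (Lcn2, Krt6b and Gjb2). These counts include Lyz2 and Lcn2, whose calls carry no weight. Of the transition list Vim, Acta2 and Snai2 were called higher and Mmp2 lower. Of the suprabasal list, Casp14 was called higher (1.34 ± 0.16) and 2 genes lower, among them Alox12b (-1.33 ± 0.16), both with a limma adjusted p of 0.0193. The departure of Grem1 was -1.51 ± 0.22 (limma adjusted p = 0.0307).

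For some called genes the genotype difference was nearer to 0 in Mts24 positive cells than in the negative fractions. Snai2 differed by -1.23 here against -2.70 ± 0.11 in the negative fractions, a departure of 1.46 ± 0.19 (limma adjusted p = 0.0226). Mmp2, a gelatinase of the matrix, read 10.16 and 11.05, a difference of 0.89 against 2.30 ± 0.10, a departure of -1.41 ± 0.17 (limma adjusted p = 0.0212). Cyp2g1, a cytochrome P450, had the widest departure of all at 4.26 ± 0.35 (limma adjusted p = 0.00918), and its wild type Mts24 positive array was already low. It read 6.73 there, against 11.13, 11.29 and 9.95 in wild type CD34 negative, CD34 positive and Mts24 negative cells, and between 5.66 and 6.41 on the K14Snail arrays.

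Genes called for genotype without the Mts24 positive arrays could be read in them as separate samples. In the other 3 fractions limma called 3 genes, 2 higher and 1 lower, with 1495 at an unadjusted p under 0.05. Snai1 differed by 2.97 ± 0.07 there (limma adjusted p = 0.00516) and by 2.84 in Mts24 positive cells. Aff2, a nuclear RNA-binding factor, differed by 1.62 ± 0.06 there and by 1.73 here, reading 6.11 and 7.84. It reached 7.7 on K14Snail arrays only and so entered the test through them. Enpp5, a membrane phosphodiesterase, differed by -2.09 ± 0.09 there and by -1.25 here, reading 8.57 and 7.33. Snai1 and Enpp5, which reached the level in both genotypes, thus ran the same way in Mts24 positive cells. In the 2 negative fractions alone, 326 genes (3.04%) were called, 188 higher and 138 lower. The Y-linked Uty and Eif2s3y were among the 188 (limma adjusted p = 0.0443 and 0.0279). The part of the pools' mix of males and females in these calls was not tested. In Mts24 positive cells 161 of the 188 (85.6%) were higher, with a median of 0.46 beside 0.70 in the fractions that made the call, and 114 of the 138 (82.6%) were lower, with a median of -0.47 beside -0.64. Over all genes, 61.4% were above 0 in Mts24 positive cells. Of the 188 and 138 genes, 10 and 15 reached 7.7 in the higher genotype only. Past 2-fold the same way in Mts24 positive cells were 43 of the 188 and 24 of the 138, where 1.33% and 0.578% of all genes were at least 2-fold higher and lower. One of the 43 was the inflammatory protease Casp1 (1.59 here and 1.48 ± 0.09 in the negative fractions, limma adjusted p = 0.000761). Ehf, an epithelial transcription factor, differed by 1.25 and 1.24 ± 0.09, and Atp12a, a proton pump subunit, by 1.33 and 1.25 ± 0.09, both with a limma adjusted p of 0.00148.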

How the data were processed

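Total RNA of sorted keratinocytes was amplified, labelled with biotin and hybridised to Affymetrix arrays, 1 per group, per the labels' protocols. Values are log2 signals of probe sets as deposited, which the authors obtained by RMA (background correction, normalization and probe summary), per the submitters' processing notes; neither its version nor the genome build is given in the sources used here. Levels of different genes are not comparable on this scale, and background is not known, so differences of dim genes are uncertain.

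Of 28874 probe sets, 21789 have 1 symbol, 1621 several and 5464 none in the platform annotation; only the first were used, and 21698 were matched to RefSeq by Entrez identifier with 0 symbols changed. In 999 genes with several probe sets the one of highest mean was taken. Genes were kept with 2 of 8 arrays at or above 7.7. Models were fitted with limma 3.58.1 (lmFit and eBayes, R 4.3.3) on all kept genes, with fraction and genotype terms, Benjamini-Hochberg adjustment and a threshold of 0.05. Errors are limma's moderated standard errors. The code was run on simulated data with equal noise in every fraction. That run does not copy the wider differences of the CD34 positive pair, so it does not show how the fits behave with them. Tables and plots used Python 3.11.15, pandas 2.3.3, numpy 2.4.6 and matplotlib 3.10.9. Each group is 1 array of a pool, so p-values measure the spread between fractions, the pools' own spread being unknown. Any mice shared between fractions would tie those arrays together.

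The comparison, the 40 gene lists and the motifs were chosen with earlier results of these data known. The lists not described in the report were skeletal muscle, adipocyte, erythroid, Schwann and Merkel cell markers, of which 2, 2, 0, 2 and 1 genes passed the filter, with medians of -0.37, 0.03, -0.17 and 0.11 where any did. Genes marked for naming were the 20 highest and 20 lowest, 10 of smallest p in each limma comparison, Snai1, Krt14, Plet1 and Cd34. Of each list they were the members past 2-fold, or its 4 widest, and defining markers. Not all marked genes are described in the text. Of those of smallest p, Rbp2, Tomm5, Clybl, Nudt17, Snora69, Slc16a6 and Fscn1 (departure) and Limch1, Glul and Ddx58 (genotype) were left out, as were some of the widest list members. Other genes (such as Casp1, Gata6, Lrig1, Krt17, Col17a1, Mmp2 and the transition factors) were chosen after their values were seen. Promoter windows came from RefSeq.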

Additional observations from a re-analysis of the deposited data

Results flagged for a closer look

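Among genes past 2-fold in Mts24 positive cells, 6 differed by at least 2-fold in the opposite direction in CD34 positive cells, and the difference between the fractions was not tested for any of them. Rnase2b differed by 3.18 in Mts24 positive and -2.18 in CD34 positive cells, and Sprr2d, a cornified envelope gene, by 1.55 and -1.17. Casp14, of cornifying cells, differed by 1.19 and -1.60, and Fabp5, an epidermal fatty acid binding protein, by 1.36 and -1.69. Cyp17a1, a steroid-forming cytochrome P450, differed by 1.14 and -1.13. Krtap7-1, a hair keratin-associated protein, differed by 1.02 and -3.42.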

How the results depend on the processing

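With no filter, a stricter filter (4 arrays), repeated quantile normalization, median centring or the mean of a gene's probe sets, the count of genes at least 2-fold higher lay between 112 and 192 and that of lower genes between 57 and 85. Of the 185 genes marked for naming, 161 moved by less than 0.1 log2, the typical residual SD of the other fractions, with quantile normalization and 183 with the mean of probe sets. With no filter the medians of the neutrophil and mast cell lists turned from 1.10 to -0.19 and from 1.04 to -0.03, since only 1 gene of each passes the filter. The limma count of departures from the other fractions was 142 without the CD34 positive pair and 0 in every other fit run. The count for genotype in the other 3 fractions was 3, and became 8 with no filter, 326 without the CD34 positive pair and 0 without the CD34 negative or the Mts24 negative pair. The fit with the pool as a random block was not run, because its correlation could not be estimated. The limma fits pair the genotypes by fraction; no paired analysis by replicate number was possible because each group holds 1 array and the labels carry no such numbers. Signal near background limits the genes whose dimmer side lies under 7.7.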

Other observations

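Small nucleolar and Cajal body RNAs formed a group seen only after the values were known. Of 42 such genes kept, 38 were above 0 in Mts24 positive cells and 12 were at least 2-fold higher, 0 lower, with a median of 0.60 beside -0.02, 0.05 and -0.23 in the CD34 negative, CD34 positive and Mts24 negative fractions. Over all 10720 genes, 61.4% were above 0, 1.33% were at least 2-fold higher and 0.578% at least 2-fold lower. Snord118 read 8.43 in wild type and 9.88 in K14Snail, and Snora73a 11.51 and 12.72. These 12 are part of the 143 higher genes, and no test was made of the group.

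Probe sets with no gene symbol were left out of the comparisons. Of 5464, 1552 reached the same level, 28 of them at least 2-fold higher and 4 lower in K14Snail Mts24 positive cells. Of the 1621 with several symbols, 770 did, 9 of them higher and 3 lower. Among the 10720 genes compared, 1.33% were at least 2-fold higher and 0.578% lower, and these counts are given only for completeness.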
